A study of Mus musculus with 16 samples.

Results

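Scavenger receptors and C-type lectin receptors are pattern receptors of phagocytosis, and 9 of them were followed here in sorted mouse neutrophils during polymicrobial sepsis. The genes were chosen by name from the 49315 genes in the count files, and all 9 were found by their Ensembl identifiers. They are the C-type lectin receptors Clec7a (Dectin-1), Clec4n (Dectin-2), Clec4d (MCL), Clec4e (Mincle) and Clec5a (MDL-1), the lectin-like oxidized LDL receptor Olr1 (LOX-1), and the scavenger receptors Cd36, Msr1 (SR-A) and Marco. RNA was sequenced from cells sorted by CD11b, Ly6G and CD45.2 from the blood and the lung of mice that were either WT or knockout for CD11d, the integrin αD encoded by Itgad (labelled aD KO). Mice were either untreated (baseline) or taken 12 hours after cecal ligation and puncture (CLP), a surgery that spills gut bacteria into the abdomen, done in males aged 8 to 12 weeks. The age and sex of the untreated mice are not given in the sources used here. The 2 genotypes, 2 tissues and 2 times make 8 groups. The knockout mice came from a commercial breeder.

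C-type lectin receptors bind sugars and lipids on microbes and on damaged cells. Clec7a recognises fungal beta-glucan and signals by its own tail through the kinase Syk, whereas Clec4n, Clec4d and Clec4e depend on the adaptor Fcer1g and Clec5a on the adaptor Tyrobp. Syk then acts through Card9, Bcl10 and Malt1 to switch on NF-kB and cytokine genes. Scavenger receptors take up modified lipoproteins, bacteria and dying cells, and are best known from macrophages.

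Each group has 3 count files under 2 samples. Sample 1 holds 2 of them, named here library 1a and library 1b, and sample 2 holds library 2. The study calls its RNA sequencing triplicate, and the sources do not say if 1a and 1b are different mice, so p-values measure the spread between these libraries, which may be in part technical. Levels are given as CPM, counts scaled to a common library size by TMM over all 24 libraries. Levels of different genes were compared only as CPM per kb of gene model. A change was called at an adjusted p under 0.05 over all genes tested and an absolute log2 fold change over 1 in edgeR's quasi-likelihood F test. Total counts per library were 5753476 to 29984954. The libraries 1b were shallower than most (5753476 to 17976890) but had more genes with counts (29162 to 38844, against 17132 to 32666 in the others). Library 1b was the lowest of its group for Clec4d in 8 of 8 groups, for Clec4e and Clec5a in 7, and for Clec7a and Clec4n in 6.

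Before the receptors, the genotype, sort and time labels were checked. Itgad was 12.5 to 102 CPM in the 12 libraries labelled aD KO and 0.0583 to 3.66 CPM in the 12 WT libraries. Higher counts in the libraries labelled aD KO go against a loss of the transcript, but the files count whole genes and not exons, so an altered transcript cannot be told from an intact one. All 8 neutrophil markers, S100a8 and Csf3r among them, had counts in every library. Their summed level was 29204 to 60841 CPM in blood at baseline and 116284 to 212326 CPM in blood at 12 hours. The markers did not move together. S100a8 in WT blood was 11474, 8852 and 14771 CPM at baseline and 97865, 42559 and 81458 CPM at 12 hours. Csf3r in WT blood was 10920, 4336 and 11359 CPM and then 1457, 1019 and 2604 CPM. In aD KO blood Csf3r was 10345, 6048 and 5385 CPM and then 2094, 886 and 2019 CPM.

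Markers of other cells were present at lower levels. The 6 B cell markers summed to 261 to 1260 CPM in blood at baseline and 37.1 to 227 CPM at 12 hours. The 12 monocyte and macrophage markers summed to 462 to 1714 CPM in blood at baseline and 543 to 1051 CPM at 12 hours. The genes of this list did not all move with the sum. In WT blood Csf1r was 823, 303 and 835 CPM at baseline and 142, 83.1 and 216 CPM at 12 hours. Of the 10 alveolar macrophage markers, 9 summed to 12.2 to 173 CPM over all libraries, and Fabp1, Krt79 and Ear1 reached at most 3.49 CPM. The remaining gene, Chil3, reached 45758 CPM in WT blood 12h CLP library 1a. The part of these cells in the results below was not tested. In such bulk RNA, fewer cells of a type and less RNA per cell cannot be told apart.

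In 3 aD KO lung libraries the time label went against the rest of the transcriptome. A scale was built from 1338 genes called between WT lung baseline and WT lung 12h CLP, with the receptors left out, so that the WT lung baseline mean is 0 and the 12 hour mean is 1. The library labelled aD KO lung baseline 2 stood at 1.03, and those labelled aD KO lung 12h CLP 1a and 2 stood at 0.0995 and 0.188. The other 11 libraries labelled baseline stood at -0.0404 to 0.221 and the other 10 labelled 12h CLP at 0.66 to 1.21. The main results that rest on these 3 libraries are given with and without them.

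Most of the lectin receptors lie on chromosome 6 (GRCm38). Clec4n (123229843 to 123247021, + strand), Clec4d (123262111 to 123275265, + strand) and Clec4e (123281789 to 123289870, - strand) are neighbours, with gaps of 15.1 and 6.52 kb. Clec7a (129461591 to 129472779, - strand) and Olr1 (129485244 to 129507165, - strand) are separated by 12.5 kb. Clec5a (40574894 to 40585821, - strand) stands apart on the same chromosome. Cd36 is on chromosome 5 (17781690 to 17888801, - strand), Msr1 on chromosome 8 (39581685 to 39642673, - strand) and Marco on chromosome 1 (120474538 to 120505024, - strand).

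Promoters, from 250 bases before to 50 after the start, were found in RefSeq (GRCm38.p6) for 7 of the 9 genes, and none was found for Clec4n and Msr1. They were searched on both strands for 6 motifs: NF-kB (GGGA, 4 free bases, then CC), AP-1 TGANTCA, C/EBP TTGCNNAA, PU.1 GAGGAAG, the antioxidant response element TGACNNNGC and the hypoxia response element ACGTG. Shown are 3 promoters, those of the neighbours Clec7a and Olr1, which changed in opposite directions, and that of Clec4e, with motif matches in capitals and read 5′ to 3′. For Clec7a, on chr6:129472730-129473029 (- strand), the start equals the gene's end in the files, and a further start 6 bases upstream has the same result:
Clec7a: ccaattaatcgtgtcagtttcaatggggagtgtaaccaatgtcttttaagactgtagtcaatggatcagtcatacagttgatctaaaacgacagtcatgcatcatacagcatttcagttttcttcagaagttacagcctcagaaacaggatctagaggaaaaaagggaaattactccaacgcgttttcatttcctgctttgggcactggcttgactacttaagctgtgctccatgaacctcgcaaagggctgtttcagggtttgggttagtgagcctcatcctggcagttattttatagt
For Olr1, on chr6:129507116-129507415 (- strand):
Olr1: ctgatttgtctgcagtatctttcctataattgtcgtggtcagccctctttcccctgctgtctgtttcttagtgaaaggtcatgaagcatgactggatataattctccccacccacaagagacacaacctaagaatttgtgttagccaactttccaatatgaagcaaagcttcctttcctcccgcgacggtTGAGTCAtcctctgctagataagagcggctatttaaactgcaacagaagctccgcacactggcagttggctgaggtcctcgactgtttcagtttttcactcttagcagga
For Clec4e, on chr6:123289822-123290121 (- strand):
Clec4e: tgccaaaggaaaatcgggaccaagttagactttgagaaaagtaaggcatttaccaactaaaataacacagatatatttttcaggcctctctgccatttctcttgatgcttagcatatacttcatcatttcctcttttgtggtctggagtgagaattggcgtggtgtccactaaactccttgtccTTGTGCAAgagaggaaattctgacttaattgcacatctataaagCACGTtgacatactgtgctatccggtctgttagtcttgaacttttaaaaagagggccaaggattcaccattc

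The Clec7a promoter held none of the 6 motifs. In the Olr1 promoter an AP-1 motif began 60 bases before the start, a motif found in 7.81% of 32817 mouse promoters. In the Clec4e promoter a C/EBP motif began at -66 and the core of a hypoxia response element at -22, found in 10.8% and 19.6% of promoters. Among the others, Clec5a had 2 PU.1 motifs (-82 and -56) and Clec4d had 1 (-241), against 13.6% of promoters with any. Marco had an NF-kB motif (-29) and a PU.1 motif (-146), and Cd36 an NF-kB motif (-203), which 20.7% of promoters hold. These are matches of letters and not measured binding.

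At baseline Clec7a had the highest mean level per kb of the 9 receptors in every group, and Marco or Msr1 the lowest. In aD KO lung it overlapped Clec4e (449 ± 357 against 316 ± 301 CPM per kb, SD, n = 3), since in library 2, which stood against its time label, Clec7a was 52.3 and Clec4e 660. In the other 2 libraries of that group Clec7a was 743 and 551 and Clec4e 184 and 104 CPM per kb. In WT blood Clec7a stood at 531 ± 237 CPM per kb (SD, n = 3), apart from Clec4d at 169 ± 78.7. Clec4d, Clec4e (82.5 ± 43.1), Clec5a (63.6 ± 31.5) and Clec4n (58.2 ± 36.1) followed, and neighbours in this order overlapped. The scavenger receptors formed a lower tier: Cd36, Msr1 and Olr1 stood between 1.29 and 2.22 CPM per kb and Marco at 0.0778.

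At 12 hours the order was different. Clec4e came first in WT blood (259 ± 159 CPM per kb), aD KO blood (216 ± 54.1) and WT lung (580 ± 411), each time overlapping the next gene. Clec7a dropped to the sixth place in WT blood (8.27 ± 4.33) and to the fourth in WT lung (75.8 ± 53.4) and aD KO blood (15.2 ± 11.3). In aD KO lung, which holds the 3 libraries with doubtful times, Clec7a remained first in mean level (490 ± 414) and overlapped Clec4e (203 ± 49.3). In library 1b, the one 12h CLP library of aD KO lung that did not stand against its label, Clec7a was 13.6 and Clec4e 248 CPM per kb.

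**Figure D1:**
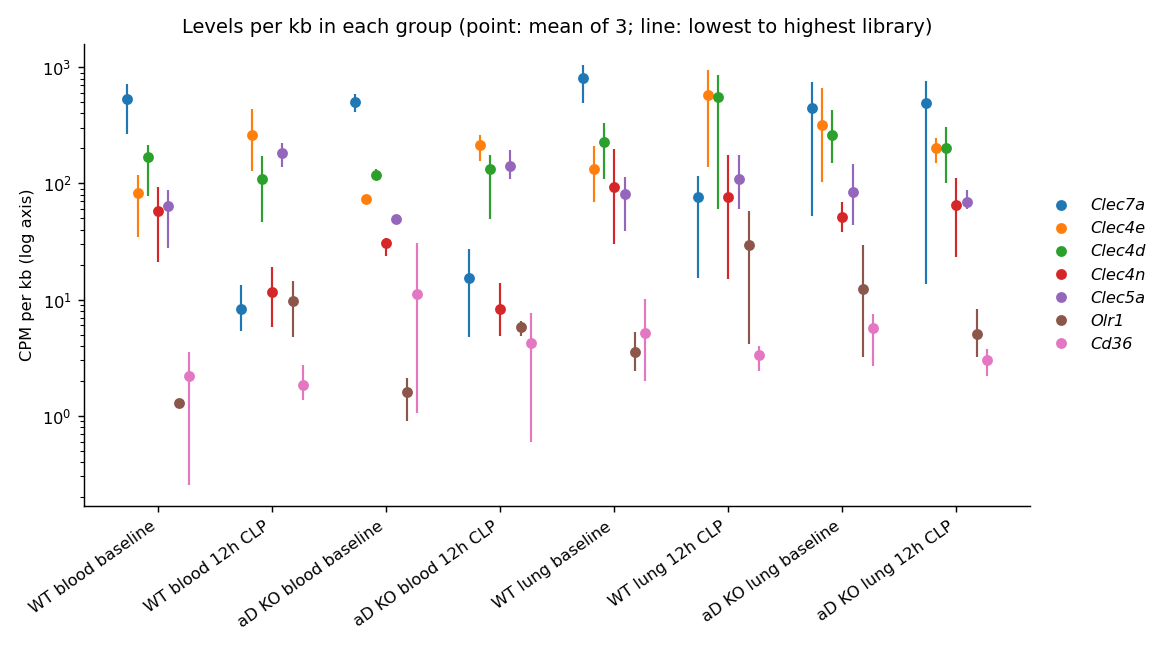
Level of 7 receptors in each group in CPM per kb on a log axis, with points for the mean of 3 libraries and lines from the lowest to the highest library. Clec7a (blue) is first in the baseline groups and drops below Clec4e, Clec4d and Clec5a at 12 hours in WT blood, aD KO blood and WT lung, while Msr1 and Marco are not drawn.

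The first question was how the receptors changed after CLP within a genotype and tissue. Clec7a had the largest change, a fall in WT blood, aD KO blood and WT lung. Clec4n fell in blood of both genotypes, and Olr1 rose in WT blood, aD KO blood and WT lung. Clec4e and Clec5a rose in aD KO blood. Of the 9 receptors, 3 were called in WT blood (8 tested), where 13.5% of all tested genes were called. Of these, 1 was higher (background 7.75%) and 2 were lower (5.75%). In aD KO blood 5 were called (8 tested, background 8.75%), 3 higher (3.75%) and 2 lower (4.99%). In WT lung 2 were called (8 tested, background 9.02%), 1 higher (5.24%) and 1 lower (3.78%). In aD KO lung 0 of 9 tested were called by edgeR or by DESeq2 (background 0% for both), and 0 had an unadjusted edgeR p under 0.05 (background 0.401%).

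Looser counts were also taken. Unadjusted edgeR p-values under 0.05 were found for 5 receptors in WT blood (background 28.8%), 5 in aD KO blood (27.8%) and 3 in WT lung (26.6%). The libraries of the 2 times did not overlap for 5 receptors in WT blood (background 34.7%), 5 in aD KO blood (32.2%), 1 in WT lung (28.5%) and 0 in aD KO lung (2.88%). The median log2 fold change of the receptors that passed the filter was -0.35 in WT blood, -0.85 in aD KO blood, 0.71 in WT lung and -0.37 in aD KO lung. Over all genes tested the medians were -0.15, -0.14, 0.03 and -0.05.

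**Figure D2:**
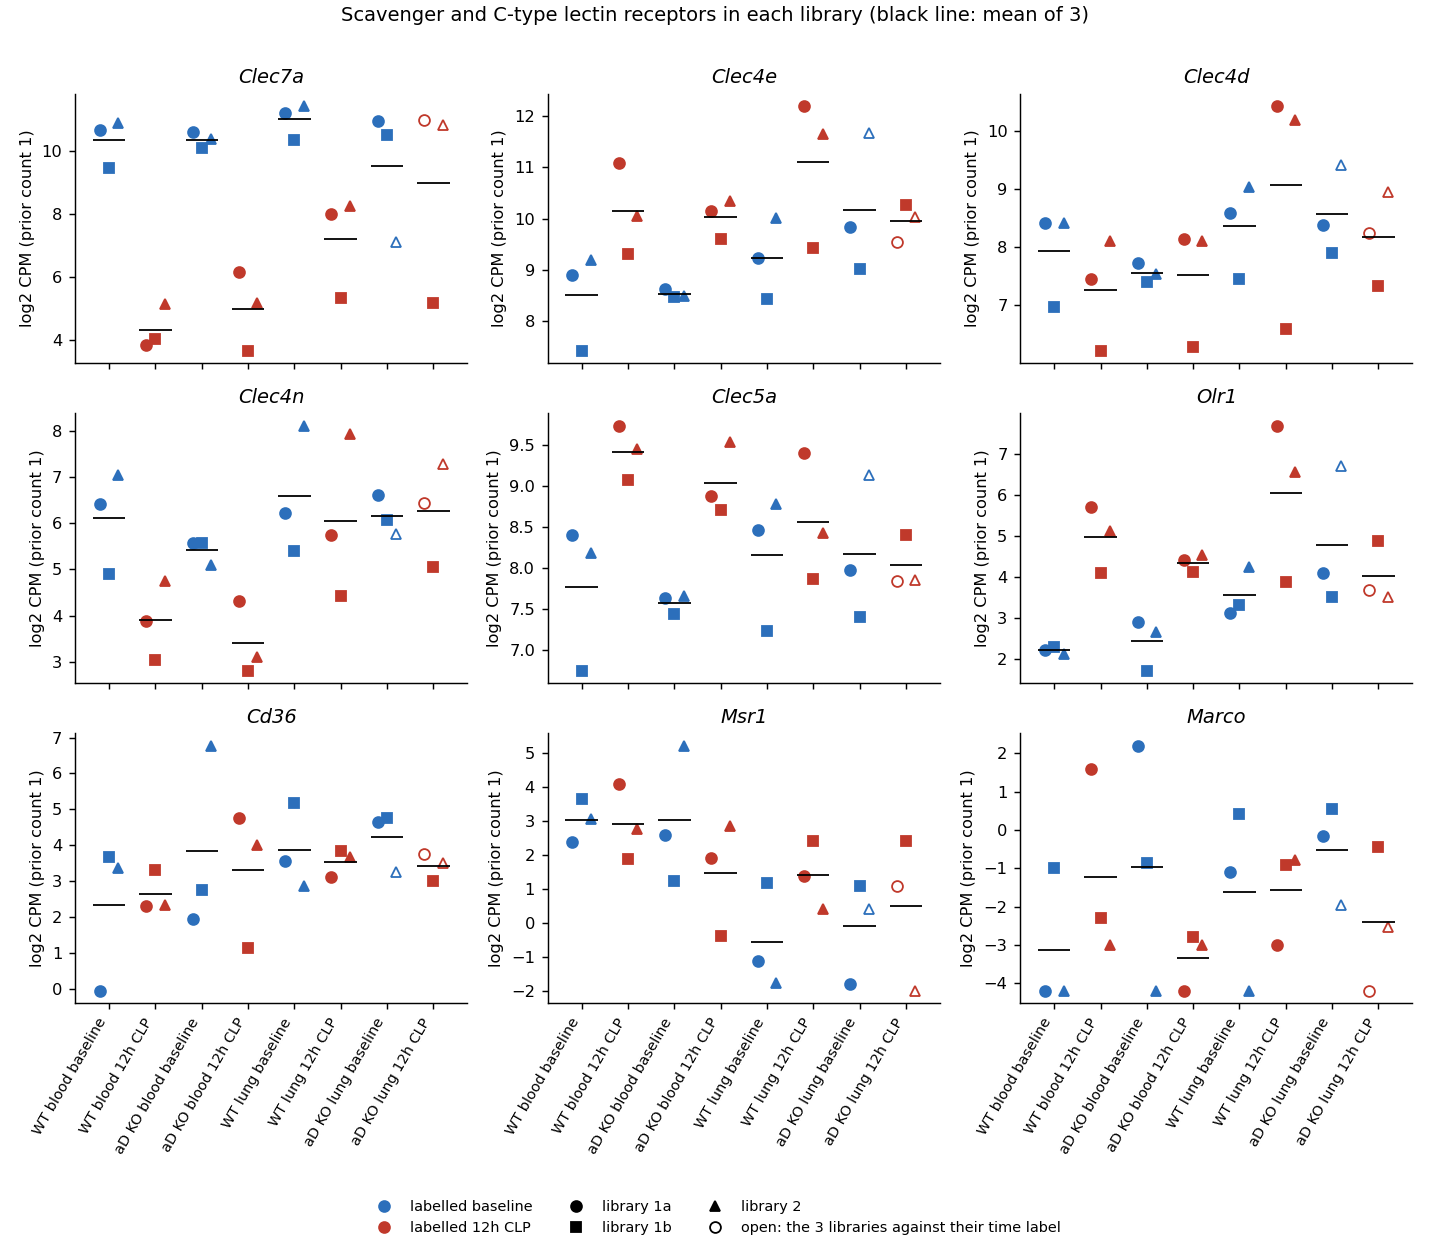
Level of each receptor in each of the 24 libraries as log2 CPM with a prior count of 1, blue for baseline and red for 12h CLP, by library 1a, 1b and 2, with a black line at the group mean. Open symbols are the 3 aD KO lung libraries that stand against their time label. Clec7a separates blue from red in WT blood, aD KO blood and WT lung, and the open symbols lie with the other colour.

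Clec7a, the beta-glucan receptor Dectin-1, was 1604, 700 and 1901 CPM in WT blood baseline libraries 1a, 1b and 2, and 14.2, 16.3 and 34.9 CPM at 12 hours. The times did not overlap, and the fitted level was 72.6-fold lower at 12 hours (log2 fold change -6.18, standard error 0.58, 95% interval -7.53 to -4.84, edgeR adjusted p = 0.00188). The levels in aD KO blood were 1548, 1092 and 1333 CPM and then 71.9, 12.5 and 35.9 CPM. Here the log2 fold change was -5.31 (standard error 0.61, edgeR adjusted p = 0.00384), which held without any 1 library, at adjusted p of at most 0.0457. In a single fit of all 8 groups its adjusted p was 0.054, and none of the 5 receptors called in aD KO blood passed. With the files of sample 1 summed, 2 of the 5 passed, Clec4e and Clec7a. In the same blood libraries the summed B cell markers were also lower at 12 hours, as given above. Cd79a did not follow the sum in WT blood, at 7.15, 4.5 and 19.9 CPM at baseline and 11.5, 5.37 and 25.6 CPM at 12 hours. In aD KO blood Cd79a was 9.08, 6.26 and 140 CPM and then 11.1, 5.37 and 5.5 CPM. The part of these cells was not tested.

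In WT lung, Clec7a was 2378, 1298 and 2760 CPM at baseline and 254, 40.2 and 306 CPM at 12 hours. Again the times did not overlap, and the log2 fold change was -3.59 (standard error 0.68, 95% interval -5.14 to -2.04, edgeR adjusted p = 0.0208). In a single fit of all 8 groups no receptor was called in WT lung, with Clec7a at an edgeR adjusted p of 0.0877. With single libraries left out, the log2 fold change of Clec7a was -6.61 to -5.84 in WT blood and -4.18 to -3.24 in WT lung. It was called in 3 of 6 cases in WT blood (adjusted p up to 0.078, without WT blood 12h CLP 2) and in 2 of 6 in WT lung (up to 0.259, without WT lung baseline 1a). In those fits the share of all genes called also moved, from 0.00999% to 18.4% in WT blood and from 0% to 25.3% in WT lung. The calls of Clec7a were lost where it was 0.00999% to 0.255% and 0% to 0.122%. The B cell markers of WT lung summed to 402 to 758 CPM at baseline and 34.5 to 84.1 CPM at 12 hours, and their part was not tested.

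In aD KO lung the labels gave no change of Clec7a. Its levels were 1960, 1454 and 138 CPM at baseline and 2022, 35.9 and 1820 CPM at 12 hours (log2 fold change 0.01, standard error 1.24, edgeR adjusted p = 1). The low library at baseline and the high ones at 12 hours are the 3 that stood against their time label. Without them, with 2 libraries against 1, the log2 fold change was -5.50. This is a description and no test, since the libraries were left out for their place on a scale of time that Clec7a follows, and 1 library stands for 12 hours. In that fit the threshold was passed by 1 receptor, Clec7a, and by 1.41% of all genes. Over the series without the 3, Clec7a was 700 to 2760 CPM in 11 libraries labelled baseline and 12.5 to 306 CPM in 10 labelled 12h CLP.

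Clec4n, Dectin-2, a receptor of fungal mannans, was 85.4, 30 and 132 CPM in WT blood at baseline and 14.8, 8.18 and 26.9 CPM at 12 hours. The groups did not overlap, and the log2 fold change was -2.51 (standard error 0.54, edgeR adjusted p = 0.0229). In a single fit of all 8 groups Clec4n was not called in WT blood (edgeR adjusted p = 0.122). The gene went from 47.9, 47.6 and 34 CPM to 19.8, 6.89 and 8.57 CPM in aD KO blood, with a log2 fold change of -2.15 (standard error 0.45, edgeR adjusted p = 0.0283). With single libraries left out the log2 fold change was -2.99 to -1.94 in WT blood and -2.66 to -1.86 in aD KO blood. Either call was kept in 2 of 6 cases, and the adjusted p reached 0.33 without WT blood 12h CLP 1a, where 0.102% of all genes were called, and 0.164 without aD KO blood 12h CLP 2, where 0.973% were. The other losses in aD KO blood were without baseline 1a (0.456% of all genes called), baseline 1b (4.67%) and 12h CLP 1b (8.74%, with Clec4n at an adjusted p of 0.0522). In WT lung the levels overlapped, at 75.1, 42.4 and 278 CPM and then 53.9, 21.5 and 247 CPM (log2 fold change -0.44, 95% interval -2.46 to 1.58).

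Olr1, a receptor of oxidized LDL, began from a low level and rose. In WT blood it was 4.65, 4.86 and 4.3 CPM at baseline and 52, 17.1 and 35.1 CPM at 12 hours. This was 6.27-fold higher (log2 fold change 2.65, standard error 0.38, edgeR adjusted p = 0.00641). Olr1 in aD KO blood was 7.49, 3.24 and 6.34 CPM and then 21.4, 17.4 and 23.1 CPM, 3.18-fold higher (log2 fold change 1.67, standard error 0.37, edgeR adjusted p = 0.0336). No library overlapped between the times in blood of either genotype. With single libraries left out the log2 fold change was 2.39 to 2.80 in WT blood and 1.48 to 1.93 in aD KO blood. The call was kept in 2 of 6 and 1 of 6 cases. The adjusted p reached 0.0974 without WT blood 12h CLP 2 (0.00999% of all genes called) and 0.169 without aD KO blood 12h CLP 2 (0.973%). Over all losses of Olr1, the share of all genes called was 0.00999% to 0.811% in WT blood and 0.456% to 4.67% in aD KO blood.

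In WT lung, Olr1 was 8.63, 10 and 18.9 CPM at baseline and 207, 14.8 and 95.5 CPM at 12 hours. Library 1b at 12 hours lay within the baseline range, and the log2 fold change was 2.88 (standard error 0.74, 95% interval 1.2 to 4.57, edgeR adjusted p = 0.0477). With single libraries left out the log2 fold change was 1.92 to 3.42. The call was lost in 5 of 6 cases, with an adjusted p up to 0.407 without WT lung baseline 1a. In 3 of these 5, without baseline 1a, baseline 2 or 12h CLP 1a, 0% of all genes were called. Without 12h CLP 2 it was 0.122%, and without baseline 1b 5.03%, with Olr1 at an adjusted p of 0.117. In aD KO lung it was 17.3, 11.4 and 104 CPM and then 12.9, 29.7 and 11.4 CPM (log2 fold change -1.07, 95% interval -3.06 to 0.93). Without the 3 libraries the value was 1.12, again as a description.

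**Figure D3:**
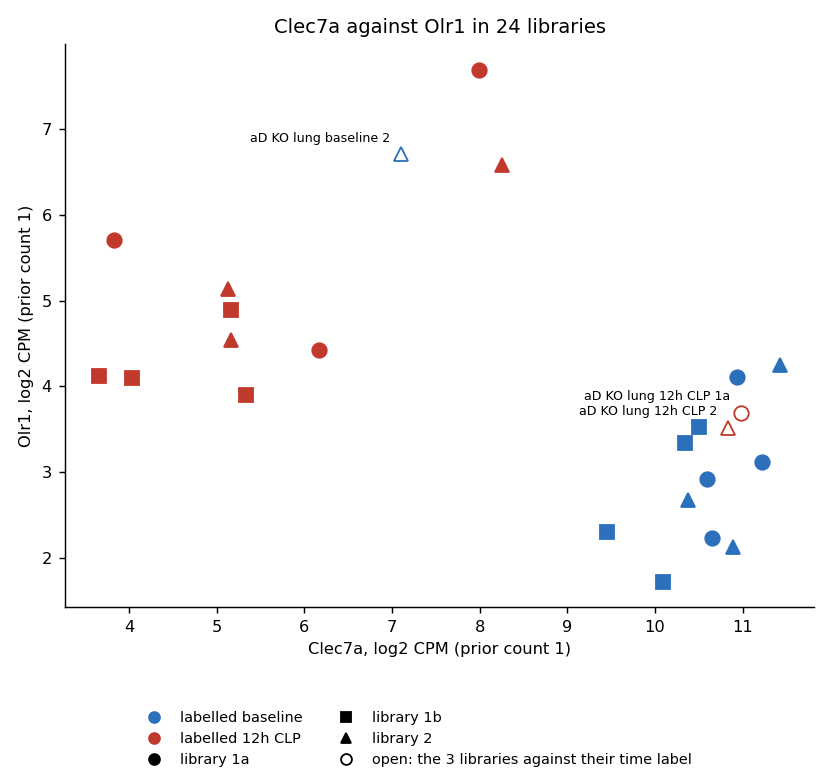
Olr1 against Clec7a in the 24 libraries, both as log2 CPM with a prior count of 1, blue for the label baseline and red for 12h CLP. The libraries labelled baseline lie at high Clec7a and low Olr1 and those labelled 12h CLP at lower Clec7a, except for the 3 open symbols, the aD KO lung libraries against their time label.

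Clec4e, Mincle, which senses mycobacterial glycolipids and a protein of dead cells, had higher mean levels at 12 hours in WT blood, aD KO blood and WT lung. Its levels in aD KO blood were 393, 353 and 358 CPM at baseline and 1141, 776 and 1300 CPM at 12 hours. This was 2.45-fold higher (log2 fold change 1.29, standard error 0.28, edgeR adjusted p = 0.0313). In WT blood the levels were 477, 170 and 582 CPM and then 2163, 638 and 1055 CPM. The groups did not overlap, but the log2 fold change of 1.45 (standard error 0.53, 95% interval 0.22 to 2.68) was not called, at an edgeR adjusted p of 0.117. In WT lung Clec4e went from 602, 344 and 1036 CPM to 4728, 691 and 3226 CPM, with the low library again 1b (log2 fold change 1.97, 95% interval 0.48 to 3.45, edgeR adjusted p = 0.096).

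Clec5a, a receptor that signals through Tyrobp, was 199, 173 and 201 CPM in aD KO blood at baseline and 468, 417 and 743 CPM at 12 hours. It was 2.40-fold higher (log2 fold change 1.26, standard error 0.29, edgeR adjusted p = 0.0352). In WT blood it was 336, 107 and 289 CPM and then 850, 537 and 701 CPM, without overlap (log2 fold change 1.34, standard error 0.41, edgeR adjusted p = 0.0702). In WT lung the groups overlapped (log2 fold change 0.32, 95% interval -0.77 to 1.42). With single libraries of aD KO blood left out, the log2 fold change was 1.21 to 1.49 for Clec4e and 1.05 to 1.43 for Clec5a. Either call was kept in 1 of 6 cases, and over the 6 the share of all genes called was 0.456% to 8.74%, and the adjusted p was highest without aD KO blood 12h CLP 2 (0.159 and 0.174).

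The same-numbered libraries of WT blood deviated together, and with the library number as a replicate block 5 receptors were called there in place of 3 (background 18.4%). The added ones were Clec4e (log2 fold change 1.45, adjusted p = 0.033) and Clec5a (1.44, adjusted p = 0.0271). The block gave 5 calls in aD KO blood (background 10.7%) and 1 in WT lung, Clec7a (6.01%). In both, the numbers did not pair the libraries, with a lowest correlation of 0.0503 in aD KO blood and 0.0705 in WT lung. In WT blood DESeq2's Wald test called the same 5 receptors as the block (background 6.94%). It called 5 in aD KO blood (5.34%) and 3 in WT lung (5.57%), Clec7a, Olr1 and Clec4e. Shares given for DESeq2 are over every gene with a count, and those for edgeR over genes that passed the filter. In WT blood these were 2909 of 41941 genes for DESeq2 and 1975 of 14625 for edgeR, so the 2 shares do not compare directly. The 5 calls in aD KO blood were not the same receptors in every alternative. Of 7 alternatives other than left-out libraries, Clec4e kept its call there in 5 and Clec5a in 4. Between the genotypes, the change in blood did not pass the test of the difference for any receptor: the interaction was 1.05 for Clec7a (95% interval -0.79 to 2.90), -0.96 for Olr1 (-2.25 to 0.33), 0.05 for Clec4e (-1.54 to 1.64) and 0.12 for Clec5a (-1.24 to 1.48), each at an edgeR adjusted p of 1 (background 0%). Marco alone had an unadjusted p under 0.05 (background 1.17%), and DESeq2 called 0 (0.00227%).

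Between the labelled times of aD KO lung the log2 fold changes were -0.47 for Clec4e, 0.30 for Clec4n, -0.37 for Clec4d and -0.14 for Clec5a. The levels of Clec4e there were 912, 515 and 3277 CPM at baseline and 745, 1229 and 1052 CPM at 12 hours, with the highest library the one labelled baseline 2. Without the 3 libraries the log2 fold changes were 0.85, -1.24, -0.75 and 0.76, again a description of 2 libraries against 1.

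Clec4d, the partner of Clec4e, was not called in any comparison of times. It was 343, 126 and 344 CPM in WT blood at baseline and 175, 74.5 and 275 CPM at 12 hours (log2 fold change -0.85, 95% interval -1.96 to 0.27). In aD KO blood the log2 fold change was -0.10 (95% interval -1.05 to 0.85), so that this gene between Clec4n and Clec4e differed from baseline by less than the spread of libraries. In WT lung it was 385, 175 and 526 CPM and then 1379, 96.1 and 1169 CPM. Library 1b at 12 hours fell below every baseline library there, whereas libraries 1a and 2 were above all of them (log2 fold change 1.10, 95% interval -0.65 to 2.85, edgeR adjusted p = 0.403).

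WT lung 12h CLP library 1b also stood lowest of its group on the scale of time, at 0.66. Without it, 4 receptors passed the threshold in WT lung (Clec4d, Clec4e, Clec7a and Olr1), as did 25.3% of all genes. This is a description and no test, since the scale was built from genes called in the same comparison.

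The scavenger receptors Cd36, Msr1 and Marco were not called between times. Cd36, which takes up oxidized lipoproteins and fatty acids, was 0.907 to 36.4 CPM in 23 libraries and 109 CPM in aD KO blood baseline library 2. Msr1, the class A scavenger receptor of macrophages, was highest in the same library at 36.9 CPM, where the monocyte genes Ccr2 and Cx3cr1 were at 293 and 163 CPM and the 12 monocyte, 8 platelet and 6 B cell markers had their highest sums (1714, 713 and 1260 CPM). Whether these cells gave the Cd36 and Msr1 counts was not tested. Marco was 0 to 4.54 CPM and had 0 counts in 6 of 24 libraries, which allows up to 0.109 to 0.214 CPM in those libraries (3 counts each, counting error only). It passed the filter on low counts in aD KO lung but not in the other 3 comparisons of times.

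**Figure D4:**
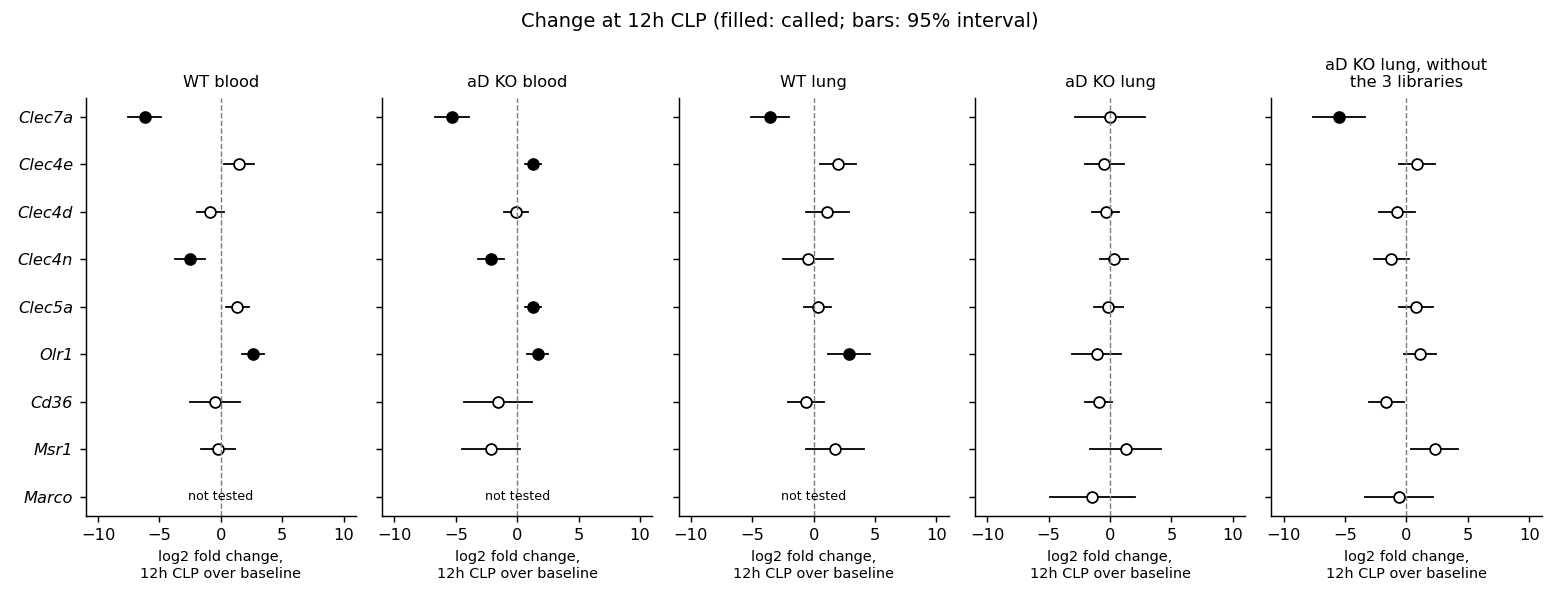
Log2 fold change of 12h CLP over baseline in each genotype and tissue, with 95% intervals and filled points for called receptors. The last panel repeats aD KO lung without the 3 libraries against their time label, where Clec7a lies at -5.50 in place of 0.01, as a description with 1 library at 12 hours.

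The next question was whether the receptors differed between aD KO and WT neutrophils. No receptor was called by edgeR in blood baseline (background 0.0115%), blood 12h CLP, lung baseline or lung 12h CLP (background 0% each). DESeq2 also called 0 in each (background 0.0116%, 0.0363%, 0.0162% and 0.364%). At an unadjusted edgeR p under 0.05 the counts were 0, 0, 0 and 2 (background 0.709%, 4.01%, 1.86% and 8.29%). Libraries of the genotypes overlapped for every receptor (groups without overlap over all genes 2.98%, 7.92%, 6.82% and 10%). In blood at baseline, the log2 fold change of the libraries labelled aD KO over WT was -0.06 for Clec7a (95% interval -0.87 to 0.75), -0.10 for Clec4e (-0.93 to 0.74) and 0.20 for Olr1 (-0.98 to 1.38). At 12 hours in blood it was 0.83 for Clec7a (-0.45 to 2.11), -0.22 for Clec4e (-1.08 to 0.64) and -0.70 for Olr1 (-1.45 to 0.05). Of these 6 intervals, a 2-fold difference (1 or -1 on this scale) lay outside those of Clec7a and Clec4e at baseline, and each of the other 4 held such a difference in 1 direction. Also in blood at baseline, the value was -0.85 for Clec4n (-1.86 to 0.15), 2.09 for Cd36 (-1.29 to 5.47) and 3.21 for Marco (-2.74 to 9.16). In lung at baseline Olr1 was at 1.69 (-0.15 to 3.53) and Clec4e at 1.15 (-0.44 to 2.75), and without aD KO lung baseline 2 they were at 0.25 and 0.17.

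In lung at 12 hours, the 2 receptors were Clec7a and Olr1. Clec7a was higher in the libraries labelled aD KO (2022, 35.9 and 1820 CPM against 254, 40.2 and 306), with a log2 fold change of 2.90 (95% interval 0.08 to 5.73, edgeR adjusted p = 0.598). Olr1 was lower (12.9, 29.7 and 11.4 CPM against 207, 14.8 and 95.5), with a log2 fold change of -2.21 (95% interval -4.12 to -0.30, edgeR adjusted p = 0.598). The groups overlapped for both genes. Without the libraries labelled aD KO lung 12h CLP 1a and 2, the value was -2.10 for Clec7a and -1.43 for Olr1. These values describe 1 aD KO library (1b) against 3 of WT and are no test, since 1b was kept for its place on a scale of time that Clec7a follows.

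The test of a different change between genotypes in lung includes the same libraries. Olr1 had an interaction of -3.98 (standard error 1.25, edgeR adjusted p = 0.41), Clec7a 3.65 (standard error 1.66, adjusted p = 0.473) and Clec4e -2.44 (standard error 1.01, adjusted p = 0.429). No receptor was called by edgeR (background 0%), 3 had an unadjusted p under 0.05 (10.5%), and DESeq2 called 1, Olr1 (adjusted p = 0.0491, background 0.704%). Without the 3 libraries the values were -1.66, -1.85 and -1.01, a description with 1 aD KO library at 12 hours. Over all 4 strata of tissue and time, the aD KO effect lay between -0.62 (Clec4n) and 0.87 (Cd36), with an edgeR adjusted p of 1 for each, and between -0.79 (Clec4n) and 1.13 (Cd36) without the 3 libraries, where no receptor was called by edgeR (background 0.0244%). With all libraries, 0.0442% of all genes were called by edgeR, Itgad among them. DESeq2 called 0 receptors there too (background 0.037%), and 0 had an unadjusted p under 0.05 (0.641%).

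**Figure D5:**
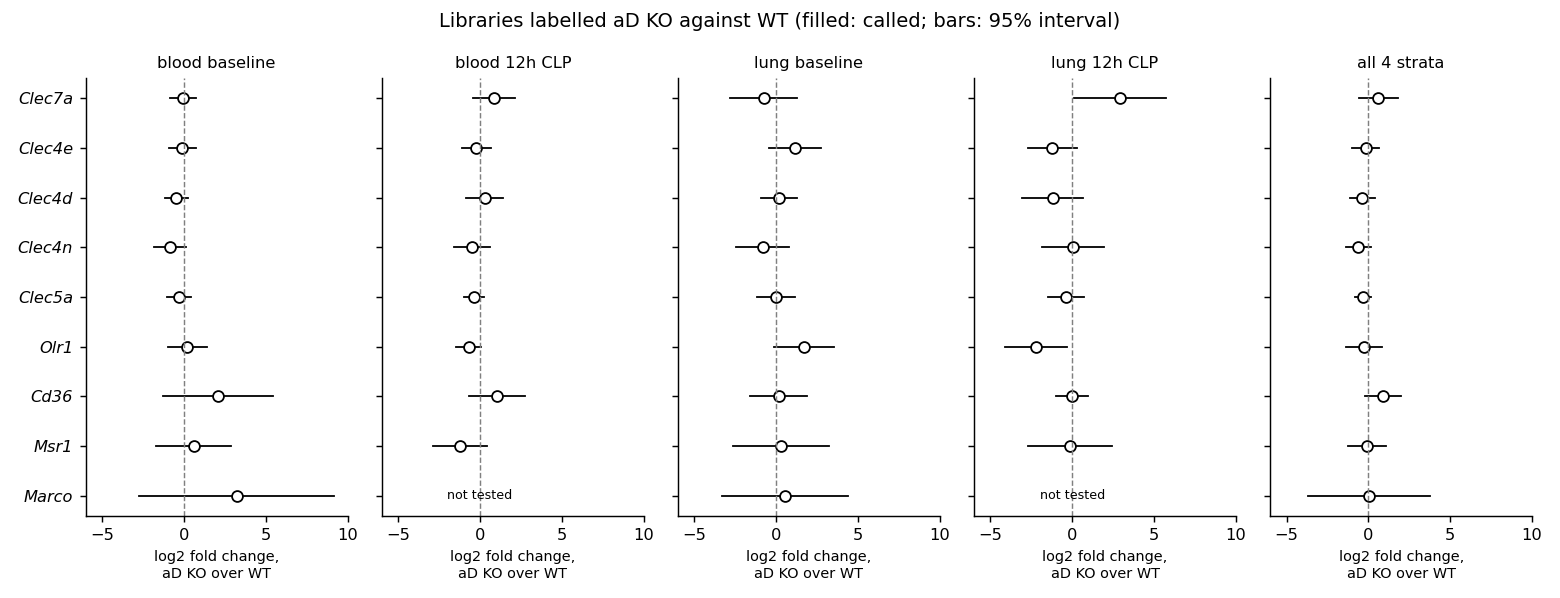
Log2 fold change of the libraries labelled aD KO over WT in each tissue and time and over all 4 strata, with 95% intervals. All points are open, since no receptor was called, and Clec7a and Olr1 in lung at 12 hours lie farthest from 0 on opposite sides among the lectins.

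The last comparison was of lung with blood neutrophils. At baseline no receptor was called in WT or aD KO by edgeR (background 0% in both). At an unadjusted edgeR p under 0.05 there were 2 and 4 receptors (background 2.54% and 2.91%), and DESeq2 called 0 and 1, the latter Olr1 (0.102% and 0.264%). The tissues did not overlap for 2 receptors in WT, Olr1 and Msr1 (background 5.68%). In aD KO they did not for 5, Clec4d, Clec4e, Clec4n, Olr1 and Msr1 (6.61%). Olr1 in WT was 4.65, 4.86 and 4.3 CPM in blood and 8.63, 10 and 18.9 CPM in lung. Olr1 in the libraries labelled aD KO was 2.90 higher in lung on the log2 scale (95% interval 0.94 to 4.86), and 1.51 (0.35 to 2.67) without aD KO lung baseline 2. The 10 lung endothelial and epithelial markers summed to 46.6 to 850 CPM in lung libraries and 3.21 to 265 CPM in blood, and their part was not tested. Msr1 was lower in lung without overlap in both genotypes. In WT it was 5.12, 12.3 and 8.34 CPM in blood and 0.413, 2.21 and 0.243 CPM in lung (log2 fold change -3.27, 95% interval -5.77 to -0.77, edgeR adjusted p = 0.999). In the libraries labelled aD KO it was 5.97, 2.32 and 36.9 CPM in blood and 0.236, 2.08 and 1.27 CPM in lung. Ccr2, a monocyte gene, was also 21 to 57.1 CPM in WT blood and 1.21 to 4.53 CPM in WT lung at baseline. The 12 monocyte and macrophage markers as a sum overlapped between these tissues (462 to 1246.5 CPM against 618 to 1016 CPM). In the libraries labelled aD KO, Ccr2 overlapped, at 40, 2.67 and 293 CPM in blood and 4.96, 5.19 and 1.41 CPM in lung. The part of these cells was not tested.

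At 12 hours the lung and blood levels were compared in the same way. In WT, Clec7a was 254, 40.2 and 306 CPM in lung against 14.2, 16.3 and 34.9 in blood, without overlap (log2 fold change 3.14, 95% interval 1.70 to 4.58, edgeR adjusted p = 0.11). Clec4n (2.70, 95% interval 0.91 to 4.49) and Clec4d (2.29, 95% interval 0.54 to 4.03) followed, and no receptor was called (background 0.0442%). DESeq2 called these 3 (background 2.15%), and 3 had an unadjusted edgeR p under 0.05 (18.1%), with 1 receptor, Clec7a, without overlap (22.4%). Without WT lung 12h CLP library 1b, 6 receptors were called (Clec4d, Clec4e, Clec4n, Clec7a, Msr1 and Olr1; background 20.2%). The test of a different change between lung and blood in WT did not call any receptor (background 0%). DESeq2 also called 0 (0.207%), and 1 had an unadjusted p under 0.05 (5.49%). For Clec7a it was 2.53 (95% interval 0.57 to 4.49, edgeR adjusted p = 0.876).

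In the libraries labelled aD KO at 12 hours, Clec4n was 86.8, 33.3 and 157 CPM in lung and 19.8, 6.89 and 8.57 CPM in blood, without overlap (log2 fold change 3.11, edgeR adjusted p = 0.092). Clec7a had a log2 fold change of 5.11 (edgeR adjusted p = 0.0953). No receptor was called (background 0.0548%), both had an unadjusted p under 0.05 (22.2%) and were called by DESeq2 (3.05%). Libraries did not overlap for 2 receptors, Clec4n and Clec5a (28.8%). Leaving out the lung libraries 1a and 2, which stood against their time label, gave -0.02 for Clec7a and 1.63 for Clec4n. In lung 1 library (1b) then remained against 3 of blood, so these values are a description and no test.

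Neighbours of the receptors on chromosome 6 were then looked at, chosen after their values were seen. Next to Clec7a lie Clec1a (129424772 to 129452000, - strand), Clec9a and Clec1b, whose models meet or overlap, so that reads could be shared among them. Clec1a fell in WT blood (log2 fold change -4.17), aD KO blood (-4.02) and WT lung (-2.07), and Clec1b, the platelet receptor CLEC-2, fell in the same comparisons (-3.09, -3.94 and -2.53). Both were low, Clec1a at 10.9 to 19.9 CPM and Clec1b at 7.81 to 13.9 CPM in WT lung at baseline. Among the lectin genes of this stretch, Olr1, on the other side of Clec7a, was the one called higher. The platelet markers summed to 28 to 713 CPM at baseline and 6 to 49.3 CPM at 12 hours in blood, and to 10.3 to 29.6 CPM and 11 to 23.2 CPM in WT lung, and their part in the fall of Clec1b was not tested.

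Other genes of these pathways were read from 5 lists with 82 genes. Over all genes tested, the shares called higher and lower were 7.75% and 5.75% in WT blood, 3.75% and 4.99% in aD KO blood, and 5.24% and 3.78% in WT lung, and the list counts that follow are read against these. Of 21 other C-type lectins, 17 were tested in WT blood, where 1 rose and 4 fell. In aD KO blood 0 rose and 4 fell of 16 tested, and in WT lung 1 rose and 2 fell of 18 tested. The list medians were -1.49, -2.01 and -0.77 on the log2 scale, against -0.15, -0.14 and 0.03 over all genes tested. Cd209a, a dendritic cell lectin, had the largest fall in WT blood (log2 fold change -5.74) and aD KO blood (-6.09), from 696 counts to 12 and from 1877 to 15 over 3 libraries. Clec9a, also a dendritic cell lectin, fell in WT blood (-4.46), from 145 counts to 6. Ly75, the endocytic receptor DEC-205, rose in WT blood (1.95), and Cd302 rose in WT lung (2.5).

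Of 18 other scavenger receptors, 1 rose in WT blood, Scarb1 (log2 fold change 1.67), a receptor of HDL. Stab1 (-2.90) and Cd68 (-1.69) fell in aD KO blood, and in WT lung edgeR called none of 12 tested (4 at an unadjusted p under 0.05 and 2 called by DESeq2, against 26.6% and 5.57% of all genes). Of 20 genes of receptor signalling, Card9, the adaptor downstream of Syk, fell in aD KO blood (log2 fold change -1.42), and edgeR called 0 of 20 in WT lung (5 at an unadjusted p under 0.05 and 4 called by DESeq2, against the same 26.6% and 5.57%).

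Genes that these receptors are known to induce changed in both directions. Of 13 cytokine and chemokine targets, 3 rose and 2 fell of 9 tested in WT blood, 2 rose and 2 fell of 9 in aD KO blood, and 4 rose and 0 fell of 12 in WT lung. The cytokine Il10 (log2 fold change 6.22 in WT blood and 8.08 in WT lung) and the neutrophil chemokine Cxcl1 (3.78 and 5.13) rose in WT. These rises were uneven, with Il10 at 12 hours at 1.1 to 69.9 CPM in blood and 3.2 to 288 CPM in lung. Cxcl1 in WT lung overlapped between the times (3.04 to 11.3 CPM at baseline, 5.44 to 408 CPM at 12 hours). Cxcl2 (3.01) and Tnf (2.68) rose in aD KO blood. They also rose in WT, Tnf in blood (2.58) and lung (4.66) and Cxcl2 in lung (3.37), values named outside the rule after they were seen. Ptgs2, the inducible cyclooxygenase, and Il1b fell in blood of WT (-5.39 and -2.91) and aD KO (-4.68 and -1.89).

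Of 10 genes of lipid handling, 2 rose and 1 fell in WT blood, 0 rose and 2 fell in aD KO blood, and 1 rose and 1 fell in WT lung. The lipid droplet protein Plin2 rose in WT blood (log2 fold change 2.48) and WT lung (3.56), and the oxysterol receptor Nr1h3 in WT blood (2.80). The cholesterol exporter Abcg1 fell in WT blood (-3.55), aD KO blood (-3.33) and WT lung (-1.51), and the lipase Lpl in aD KO blood (-3.31). In aD KO lung none of the 5 lists had a gene called by edgeR or DESeq2, and 1 gene of lipid handling had an unadjusted p under 0.05 (background 0.401%). Without the 3 libraries, as a description with 2 libraries against 1, the threshold was passed upward by 4 cytokine and chemokine genes and 1 other C-type lectin, and in either direction by 1.41% of all genes.

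To see which genes were most like each receptor, Pearson's r of log2 CPM was taken across the 24 libraries with 8231 genes of at least 5 CPM on average. The libraries share their times and depth, so r describes these libraries and carries no test. Clec7a was most like Sirpb1c (r = 0.981), Gm5150 (0.98) and Sirpb1b (0.98), of which Sirpb1b and Sirpb1c are closely related copies whose reads may be split. Olr1 was most like Ifrd1 (0.946), Traf1 (0.941) and Acod1 (0.938), the enzyme that makes itaconate. Acod1 also stood first for Clec4e (0.951), followed by Birc3 and Rab20 (0.937 each), and Olr1 and Clec4e had an r of 0.926 with each other. Clec4n was most like Atf3 (0.911), Ptgs2 (0.895) and Rnf128 (0.891).

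Among the genes most like Clec4d were Gm15832 (r = 0.954) and Zeb2 (0.952), and among those most like Clec5a were Mtmr6 (0.951) and Sec23a (0.923). For Msr1 the nearest were Man1a (0.827), Ms4a6b (0.807) and Ms4a4a (0.801). Cd36 and Marco had no gene above 0.699 and 0.513. Clec7a had an r of 0.79 with Clec4n and -0.63 with Clec5a over the same libraries.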

How the data were processed

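Neutrophil RNA was measured by SMART-Seq v4 full-length cDNA and Nextera XT libraries. According to the methods, the authors trimmed reads with Trimmomatic 0.36, mapped them with STAR 2.5.2b and counted unique reads within exons. The deposited values are raw counts per gene for 49315 genes in 24 files. The labels name GRCm38 (mm10), and strand of counting is not given in the sources used here. Positions equal those of GENCODE M21 for 44823 genes, and 48970 identifiers had a symbol.

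Groups follow the labels. The 2 files of sample 1 in each group are not identical and were taken as separate libraries (n = 3), as the study speaks of triplicates. A chi-square over genes with at least 10 counts was 43.8 to 328.5 for each degree of freedom in all pairs of a group. It covers counting error only and does not show separate mice. Tests used edgeR 4.0.16 in R 4.3.3 (TMM, filterByExpr, two-sided quasi-likelihood F test, Benjamini-Hochberg adjustment), on the libraries of the groups compared. DESeq2 1.42.0 was an alternative, and the procedure was tested on simulated data. With 3 libraries against 3, an exact permutation test cannot go below 0.1. Alternatives were RLE scaling, other filters, a single fit, summed files of sample 1, a replicate block, single libraries left out and the 3 aD KO lung libraries left out. Same-numbered libraries were taken as paired where all 3 correlations of their deviations from the group means exceeded 0.1, as in WT blood (0.459, 0.591 and 0.117).

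The receptors and gene lists were chosen with earlier results of these data known. Named list genes are the 2 largest rises and falls among called genes of a list and comparison, and likeness names the 3 highest r. Some genes that these rules name are not reported here.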

Additional observations from a re-analysis of the deposited data

How the results depend on the processing

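Of the 10 called receptor changes, 130 alternative values all kept their direction and 77 kept the call. Of 1999 alternative values of the 126 uncalled results, 39 were called. Only 1 of these turned its sign, Clec7a in aD KO lung without the 3 libraries against their time label (-5.50), where 1 receptor passed in place of 0. That fit has 1 library at 12 hours and its libraries were left out by a scale that Clec7a follows, so it is a description and no test. The number of receptors called in WT blood (3) was 5 with at least 10 counts in every library, with DESeq2, with the files of sample 1 summed and with the replicate block, and 0 to 4 with single libraries left out (0 without WT blood baseline 2, 12h CLP 1a or 12h CLP 2, and 1 without baseline 1a, where 0.255%, 0.102%, 0.00999% and 0.811% of all genes were called). In WT lung (2) it was 0 in a single fit of all 8 groups, 1 with the replicate block, where the numbers do not pair the samples by the check above, and 0 to 4 with single libraries left out (0 without WT lung baseline 1a, baseline 2, 12h CLP 1a or 12h CLP 2, with 0%, 0%, 0% and 0.122% of all genes). In aD KO blood (5) it was 0 in the single fit, 2 with the files summed, and 1 to 4 with single libraries left out (1 without aD KO blood baseline 1a, baseline 1b or 12h CLP 2, with 0.456%, 4.67% and 0.973%). For WT lung against blood at 12 hours (0) it was 3 without a filter and with DESeq2, 2 with the files summed, and 0 to 6 with single libraries left out, the 6 without WT lung 12h CLP 1b. For aD KO lung against blood it was 1 at baseline with DESeq2, and at 12 hours 2 without a filter, with DESeq2 and with the files summed, and 0 to 2 with single libraries left out. The interaction in lung had 1 with DESeq2. The replicate block changed no other count of receptors by over 1.5 times. Of 530 alternative counts for the gene lists, 341 stayed within 1.5 times, 124 were lower and 65 higher. Marco had 0 counts in 6 of 24 libraries and was not tested in 3 of the 4 comparisons of times. The cause of these shifts was not tested.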
